A study of Danio rerio with 36 samples.

Results

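The circadian clock genes of the zebrafish larva code for the transcription factors that drive the daily cycle, the Period and Cryptochrome proteins that hold them back, the nuclear receptors and bZIP factors of the accessory loops, and casein kinases. They were chosen by name, as the rows whose gene symbol was 1 of 49 listed clock genes. Of these, 44 were found among the 30221 genes of the table, and all 44 were among the 20120 genes that reached 1 FPKM (fragments scaled to transcript length and to all mapped fragments) in at least 3 libraries and were tested. No row carried the symbols cry1aa, cry1ab, cry1ba, cry1bb or nfil3-2, so nothing was read under these names. Whether they name genes that the table holds under other symbols, such as cry1a and cry1b, was not checked. RNA of whole wild-type (WT) larvae was sequenced in 36 libraries, 3 for each of 12 groups. Larvae were reared in regular culture medium or, from 6 h after fertilisation, in medium with 130 mM or 222 mM D-glucose. In each medium they were either left uncut or had the caudal fin cut off at the end of the spinal cord, and were taken 3, 24 or 48 h later. In the glucose media the cut came after 14 days in glucose. For the cut, larvae were anaesthetised with tricaine and held in carboxymethyl cellulose, and afterwards returned to their medium; whether uncut larvae were anaesthetised is not stated. All groups share the wild-type genotype, and the labels name no transgene or mutation. The series title presents the fin cut in glucose medium as a model of diabetes. The larger dose is given in mM on the samples and in nM once in the design text.

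In the vertebrate clock, the activators Clock or Npas2 pair with Bmal proteins, which the arntl genes encode, and switch on genes with an E-box, among them per, cry, nr1d, ciart, bhlhe40, bhlhe41 and dbp. Period and Cryptochrome proteins then block these activators. Nr1d receptors repress, and Ror receptors activate, genes with a shared response element, the arntl genes among them, and Dbp, Tef and Hlf compete with the repressor Nfil3 at D-boxes. In zebrafish most tissues hold clocks that light can set directly, and per2 and cry1a are known as light-induced genes.

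Some limits of the design bear on all values. The labels give neither the hour of day of sampling nor the light cycle, and do not say on which day the uncut larvae were taken. They also give no day of the cut for larvae in regular medium. Time after the cut and hour of day thus cannot be told apart, and the samples at 24 and 48 h lie 1 day apart. Whether larvae of the different media were cut and taken at the same hour is not stated either. Medium and hour of day therefore cannot be told apart in the comparisons between media. Whether the replicates of a group are separate dishes or pools is not stated, and a p-value here measures the spread of these libraries only. In whole larvae, fewer cells that express a gene and less RNA of it per cell cannot be told apart. No group with another solute at the same osmolarity was analysed. Gene names and coordinates (GRCz11) come from the deposited table. No source used here gives the counting tool or its strand setting, and paralogs or overlapping genes may share reads.

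The clock genes were expressed throughout. Of the 44, 40 reached 1 FPKM in all 36 libraries, and the exceptions were arntl2, nr1d4a, nr1d4b and per1a. Over the 36 libraries the mean level was highest for bhlhe40 (96.2 FPKM), an E-box repressor, and lowest for nr1d4a (1.38 FPKM), a zebrafish paralog of the Nr1d repressors. The highest group mean was at least 4 times the lowest for 17 genes and under 2 times for 10, and the smallest ratio was that of csnk1da (1.399). For 26 of the 44 genes the highest group mean lay in 222 mM glucose, among them 9 at 24 h, 9 at 48 h and 7 at 3 h. The libraries of that 3 h group differed from each other, as given below. How many of all genes had their highest mean in 222 mM glucose was not counted. The SD of the 12 group means of log2 CPM (counts scaled to library size) had a median of 0.557 over the clock genes and 0.286 over all genes tested. The SD within groups also had a higher median, 0.360 against 0.245.

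Several libraries stood apart in their clock genes, and in all cases the labels were kept. Over all genes tested, 4 libraries correlated with the other libraries of their group by more than 0.02 less than those did with each other: in regular medium replicate 3 of the uncut larvae and replicate 1 at 3 h, in 222 mM glucose replicate 3 of the uncut larvae, and in 130 mM glucose replicate 1 at 24 h. In replicate 1 of regular medium at 3 h, 19 of the 44 clock genes lay over 2-fold above the mean of the other libraries of the group and 0 below, 43.2% against 10.5% of all genes. The gene nr1d1, whose product represses arntl genes, stood at 29.1, 1.43 and 1.32 FPKM in the 3 libraries of that group. The E-box repressor gene ciarta ranged from 1.77 to 13.02 FPKM and the Period gene per1b from 2.32 to 22.5 FPKM there, with the high value again in replicate 1. In 222 mM glucose at 3 h the 3 libraries differed from each other: replicate 2 had 17 clock genes over 2-fold above the others and 1 below (40.9%, against 4.91% of all genes). Replicate 3 had 17 below (38.6%, against 7.13%), although neither library was among the 4. There nr1d1 stood at 25.5, 99.2 and 6.34 FPKM. Replicate 3 of the uncut larvae in 222 mM glucose had 14 clock genes over 2-fold below the others and 0 above (31.8%, against 9.02% of all genes), and nr1d1 stood at 25.3, 23.8 and 11.4 FPKM. In uncut larvae of regular medium nr1d1 stood at 15.04, 15.7 and 6.04 FPKM. Replicate 3 there had 8 clock genes over 2-fold away, 18.2% against 14.2% of all genes, a share near that of all genes.

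**Figure D1:**
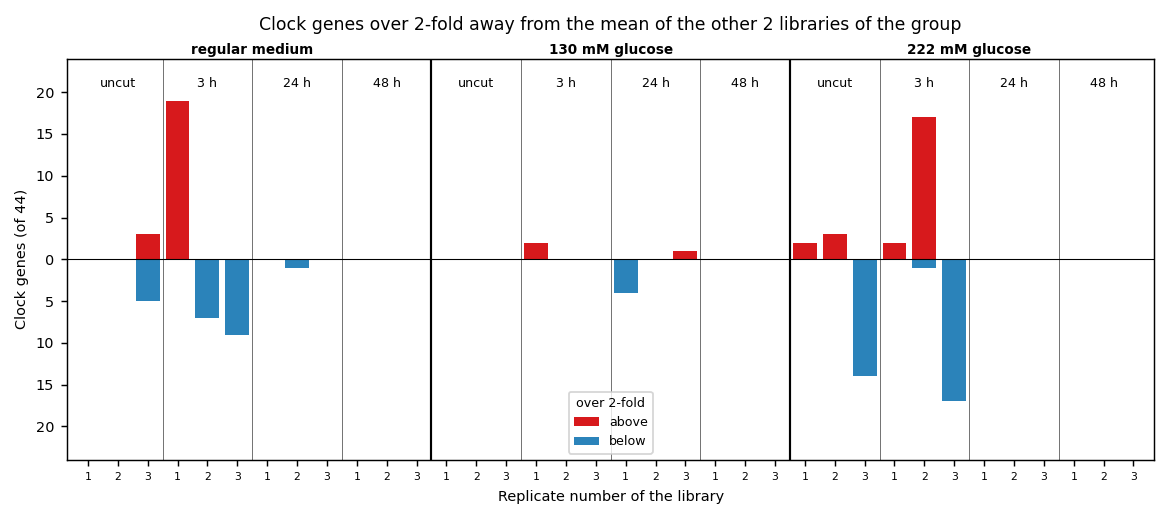
For each library (x axis, replicate number within medium and time), the number of the 44 clock genes (y axis) that lay over 2-fold above (red) or below (blue) the mean of the other libraries of its group, on log2 CPM. The tallest bars belong to replicate 1 of regular medium at 3 h (19 above) and to replicates 2 (17 above) and 3 (17 below) of 222 mM glucose at 3 h.

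Over the 44 clock genes, 27 of the 36 libraries lay nearest to their own group's mean, by the mean absolute log2 difference with the library itself left out of that mean, and 29 of 36 did so over all genes. Replicate 1 of regular medium at 3 h lay 0.250 from 130 mM glucose at 3 h and 1.17 from its own group. Replicate 3 of uncut larvae in 222 mM glucose lay 0.322 from 130 mM glucose at 48 h and 0.805 from its own group. Replicate 3 of uncut larvae in regular medium lay 0.295 from uncut larvae in 130 mM glucose and 0.606 from its own group. In regular medium and in 222 mM glucose, the groups of uncut larvae and of 3 h thus hold unlike libraries, and each count of changed genes is also given without the 4 libraries apart, beside the share of all genes under the same omission. Counts without a single library or in other fits are given without that share and show only how far a count moved. At 24 and 48 h, in regular medium and in 222 mM glucose, the number of clock genes over 2-fold away from the other libraries of the group was at most 1 in each library.

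Across the 12 group means the clock genes formed opposed sets, given here as a description, since the points share libraries and depth. With nr1d1, the Pearson correlation of group means over 12 groups was 0.98 for ciarta, 0.97 for per1b and 0.93 for dbpb. For cry2 it was 0.93 and for bhlhe41 0.92. It was -0.71 for clocka, -0.67 for cry4 and -0.63 for arntl1a. Not every family known as a target of the activators went as a whole. Of the other Cryptochrome genes, cry1a had 0.72, cry1b 0.79 and cry5 0.78, while cry3a had -0.67 and cry3b -0.4. Other members lay in neither set, with 0.14 for nr1d4a, 0.05 for npas2, 0.02 for nfil3 and -0.02 for nr1d4b. Within the Nr1d family nr1d2a had 0.50 with nr1d1, and nr1d4b had 0.70 with arntl1b. With arntl1b, a Bmal gene, it was 0.94 for clocka, 0.93 for nfil3-5, 0.90 for cry3b and 0.89 for rorcb, and -0.82 for ciartb and -0.79 for dbpa. Duplicated genes did not always go together. The pairs per1a and per1b (0.97) and ciarta and ciartb (0.95) were alike over the 12 group means, while nr1d2a and nr1d2b (0.29), hlfa and hlfb (0.28) and cry3a and cry3b (0.41) were less so.

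**Figure D2:**
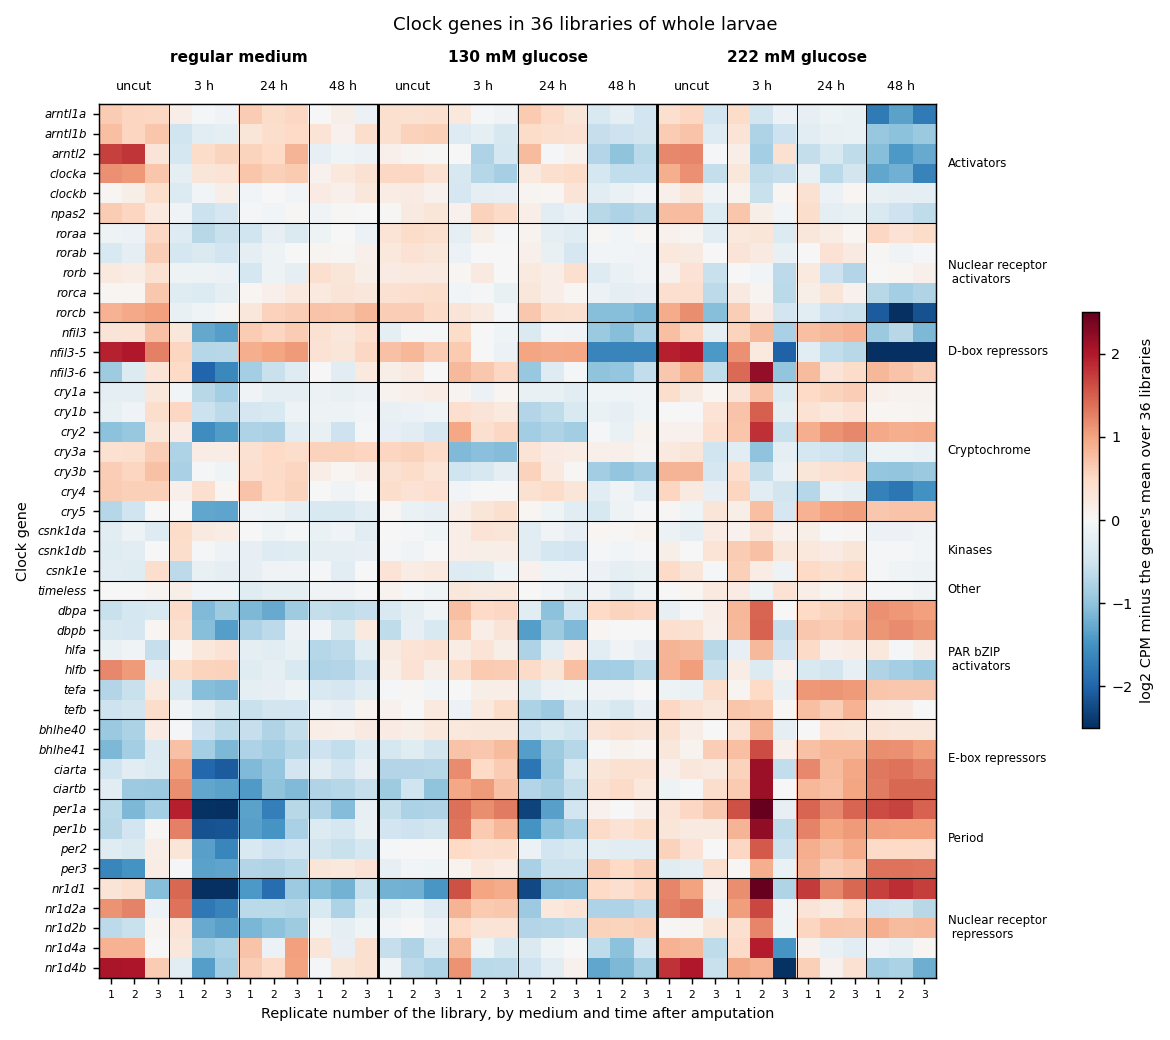
Log2 CPM of the 44 clock genes (rows, by role) in the 36 libraries (columns, replicates 1 to 3 within medium and time), each gene minus its mean over all libraries; red is above and blue below that mean. The arntl and clock genes, rorca, rorcb and nfil3-5 are blue in 222 mM glucose at 48 h, where Period, ciart and nr1d1 rows are red; in the rows of per1a, per1b, ciarta, ciartb and nr1d1, replicate 1 of regular medium at 3 h is red and the others of its group are blue.

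The largest differences in clock genes were found between larvae in 222 mM glucose and larvae in regular medium at 24 and 48 h after the cut. At 24 h, 29 of the 44 clock genes (65.9%) passed an adjusted p of 0.05 in edgeR's quasi-likelihood test, against 34.1% of all genes tested, and 21 were higher and 8 lower, against 15.7% and 18.4% of all genes. At 48 h, 22 (50.0%) passed, against 16.5% of all genes, with 10 higher and 12 lower, against 7.05% and 9.48%. The median size of the log2 change was 0.94 over the clock genes and 0.36 over all genes at 24 h, and 1.04 and 0.26 at 48 h. Neither comparison held any of the 4 libraries apart; with the spread estimated without those, 34 and 29 clock genes passed (26 higher and 8 lower, and 16 higher and 13 lower), against 46.4% and 29.3% of all genes. The balance at 48 h thus depended on the fit: 14 of 26 calls were higher in DESeq2, 14 of 25 in limma on log2(FPKM + 0.1) and 20 of 34 in a fit of only the 6 libraries compared. Changes are given as log2 change ± SE, glucose over regular medium, with edgeR's adjusted p. Statements below that libraries did not overlap describe single genes. The share of all genes without overlap was not counted. Of the 29 calls at 24 h, 22 held at an adjusted p of 0.05 without each single library and in every other fit, and of the 22 at 48 h, 15 did. The criterion of the series text, a log2 change past 1 at an unadjusted p under 0.05, was met by 18 and 22 clock genes. Whatever the p, 20 and 23 clock genes had a log2 change past 1 in size, against 12.2% and 6.38% of all genes.

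**Figure D3:**
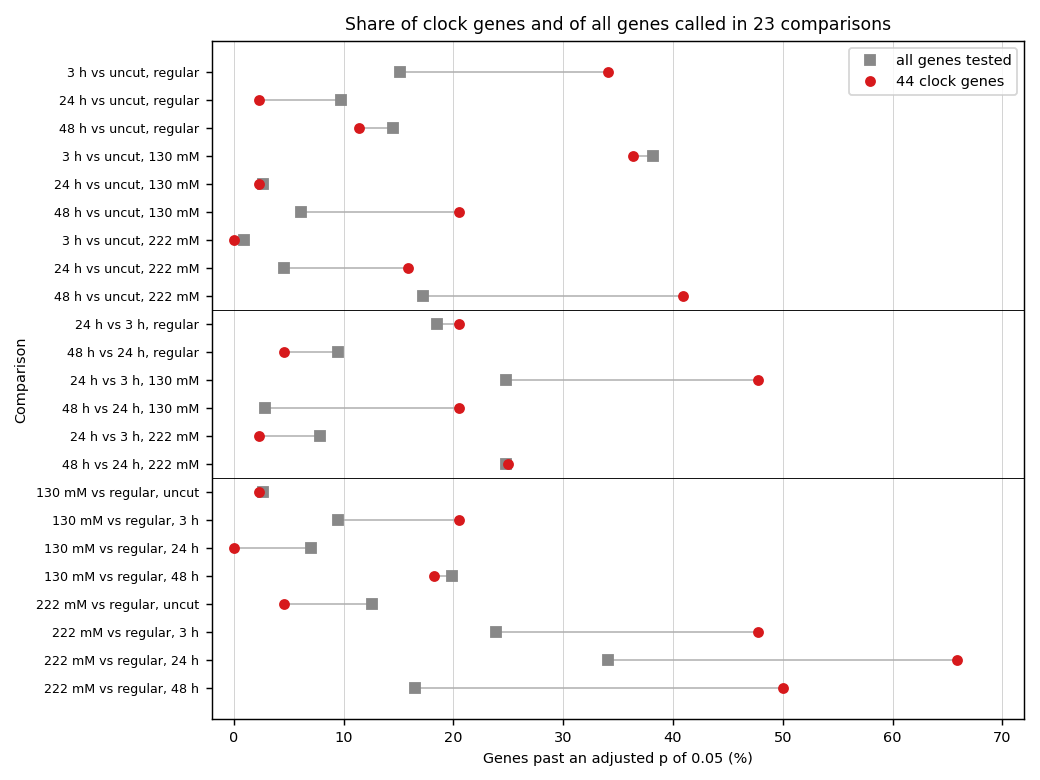
Share of the 44 clock genes (red circles) and of all 20120 genes tested (grey squares) past an adjusted p of 0.05 (x axis, percent) in each of 23 comparisons (y axis). The clock genes reach 65.9% against 34.1% in 222 mM glucose against regular medium at 24 h and 50.0% against 16.5% at 48 h; in some others, such as 48 h against uncut in regular medium, they lie near or below all genes.

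The activators were lower. At 24 h 4 of the 6 activator genes had fallen in 222 mM glucose, and at 48 h 5 of 6. The Bmal gene arntl1a (chromosome 25, 17893784 to 17918810) stood at 15.6, 15.2 and 15.7 FPKM in regular medium and 9.21, 9.87 and 9.68 in 222 mM glucose at 24 h (log2 change -0.71 ± 0.19, adjusted p 0.00387). At 48 h it stood at 11.2, 12.3 and 10.2 and 3.25, 4.38 and 3.11 FPKM (log2 change -1.62 ± 0.19, adjusted p 1.33e-06). The libraries of both media did not overlap at either time, and the 48 h larvae in 222 mM glucose had the lowest group mean of all 12. Its paralog arntl1b stood at 9.37, 7.84 and 10.1 FPKM in regular medium and 3.801, 3.61 and 3.705 in 222 mM glucose at 48 h (log2 change -1.26 ± 0.20, adjusted p 4.96e-05). At 24 h its log2 change was -0.62 ± 0.19. The Clock gene clocka (chromosome 20, 22067337 to 22176003) stood at 5.73, 5.86 and 5.99 and 3.28, 2.34 and 2.75 FPKM at 24 h (log2 change -1.08 ± 0.27, adjusted p 0.00252). At 48 h it stood at 4.21, 4.598 and 5.13 and 1.56, 1.67 and 1.16 FPKM (log2 change -1.64 ± 0.27, adjusted p 0.000146), again with no overlap. The third Bmal gene, arntl2, was low, at 2.36 to 3.09 FPKM in regular medium and 1.08 to 1.29 in 222 mM glucose at 24 h, and changed by -1.18 ± 0.34 on the log2 scale. At 48 h its change of -1.103 ± 0.34 was lost without any one of the 6 libraries (adjusted p up to 0.0939). The second Clock gene, clockb, passed narrowly at 48 h (log2 change -0.42 ± 0.15, adjusted p 0.0472), and that call was lost without any one of the 6 libraries (adjusted p up to 0.138). The Clock paralog npas2 passed at neither time, at 8.02 to 8.62 FPKM in regular medium and 5.15 to 6.44 in 222 mM glucose at 48 h.

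Among the Ror receptors, which activate arntl genes in mammals, the rorc pair was lower and roraa higher. The gene rorcb (chromosome 2, 49417900 to 49454451) stood at 18.9, 18.4 and 20.6 FPKM in regular medium at 48 h and at 2.7004, 1.996 and 2.42 in 222 mM glucose (log2 change -2.99 ± 0.32, adjusted p 5.39e-07). At 24 h it stood at 12.6, 17.1 and 17.2 and 9.03, 7.72 and 7.59 FPKM (log2 change -0.95 ± 0.30, adjusted p 0.0142). That call was lost without replicate 3 of 222 mM glucose at 24 h (adjusted p 0.0523). The lowest library in regular medium lay above the highest in 222 mM glucose at both times. Its paralog rorca stood at 55.4, 57.6 and 57.2 and 28.4, 25.7 and 26.3 FPKM at 48 h (log2 change -1.05 ± 0.20, adjusted p 0.000386), while at 24 h the ranges were 43.9 to 53.97 and 48.6 to 55.6 FPKM and the change did not pass (log2 change 0.05 ± 0.19, adjusted p 0.874). The gene roraa was higher: it ranged from 6.29 to 6.73 FPKM in regular medium and from 8.84 to 9.78 in 222 mM glucose at 48 h (log2 change 0.55 ± 0.16, adjusted p 0.0155), a small change that was lost without replicate 1 or 3 of regular medium at 48 h or replicate 1 of 222 mM glucose at 48 h (adjusted p up to 0.0578). At 24 h it also passed (log2 change 0.53 ± 0.16, adjusted p 0.0096) but not without replicate 1 of regular medium at 24 h (adjusted p 0.0522). Neither rorab nor rorb passed at either time.

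The D-box factors split. The repressor gene nfil3-5 (chromosome 6, 8172227 to 8180042) had the largest fall of the clock genes at 48 h, from 53.2, 50.4 and 59.8 FPKM in regular medium to 4.51, 4.55 and 4.58 in 222 mM glucose (log2 change -3.55 ± 0.61, adjusted p 0.000292). At 24 h it stood at 69.9, 80.6 and 84.6 and 32.9, 25.96 and 24.8 FPKM, and although the libraries did not overlap, the call (log2 change -1.496 ± 0.57, adjusted p 0.0428) was lost without any one of the 6 libraries (adjusted p up to 0.115). Its relative nfil3 stood at 31.3, 28.8 and 32.4 and 12.4, 14.7 and 10.5 FPKM at 48 h (log2 change -1.27 ± 0.33, adjusted p 0.00957). At 24 h nfil3 did not pass, with 33.6, 34.5 and 36.2 FPKM in regular medium and 38.9, 40.5 and 42.3 in 222 mM glucose. The activators that use the same DNA element were higher instead. The gene dbpa (chromosome 19, 10177115 to 10196370) stood at 2.67, 2.62 and 3.39 and 8.64, 9.09 and 9.63 FPKM at 24 h (log2 change 1.65 ± 0.29, adjusted p 6.71e-05). At 48 h it stood at 4.197, 4.05 and 4.31 and 14.05, 13.5 and 12.3 FPKM (log2 change 1.699 ± 0.29, adjusted p 0.000163). No library of the 222 mM group fell into the range of regular medium. Its paralog dbpb rose as well; it ranged from 2.52 to 4.21 FPKM in regular medium and from 7.08 to 7.56 in 222 mM glucose at 24 h (log2 change 1.17 ± 0.36, adjusted p 0.0118), lost without replicate 1 of regular medium at 24 h (adjusted p 0.0549). At 48 h the log2 change of dbpb was 1.18 ± 0.35, lost without replicate 1 or 2 of regular medium at 48 h or any one of the 3 libraries of 222 mM glucose at 48 h (adjusted p up to 0.105). The repressor gene nfil3-6 passed at neither time and ranged from 13.1 to 20.3 FPKM in regular medium and from 31.5 to 43.5 in 222 mM glucose at 24 h (log2 change 1.103 ± 0.55, adjusted p 0.123).

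The gene tefa, also a D-box activator, reached its highest level of the series in 222 mM glucose at 24 h. It stood at 51.2, 57.6 and 59.7 FPKM in regular medium and at 135, 138 and 136 in 222 mM glucose (log2 change 1.27 ± 0.19, adjusted p 9.38e-06), and at 51.3, 49.2 and 56.4 and 107, 106 and 101 at 48 h (log2 change 1.03 ± 0.19, adjusted p 0.000394). Its paralog tefb stood at 29.3, 34.1 and 33.2 and 76.2, 70.1 and 83.9 FPKM at 24 h (log2 change 1.25 ± 0.19, adjusted p 1.04e-05). By 48 h tefb ranged from 40.6 to 50.8 FPKM in regular medium and from 45.5 to 53.6 in 222 mM glucose and did not pass (log2 change 0.21 ± 0.19, adjusted p 0.491). Neither hlfa nor hlfb passed at either time. Thus 4 of the 6 genes of this family rose at 24 h and 3 of 6 at 48 h, and 0 fell.

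The Period genes, whose proteins repress Clock and Bmal, were higher, with calls for all 4 at 24 h and 1 at 48 h. The gene per1b (chromosome 7, 50822465 to 50847296) stood at 3.77, 3.77 and 5.91 FPKM in regular medium and 24.3, 20.2 and 21.7 in 222 mM glucose at 24 h (log2 change 2.29 ± 0.62, adjusted p 0.00567). The gene per3 (chromosome 11, 39959039 to 40021080) stood at 7.83, 8.52 and 8.78 and 24.9, 21.3 and 22.5 FPKM (log2 change 1.44 ± 0.34, adjusted p 0.00198). The light-induced gene per2 ranged from 25.1 to 25.3 FPKM in regular medium and from 60.4 to 66.3 in 222 mM glucose (log2 change 1.33 ± 0.36, adjusted p 0.00536). None of these 3 overlapped between the media at 24 h. The low gene per1a ranged from 0.319 to 0.643 and from 2.37 to 2.86 FPKM, with a call (log2 change 2.57 ± 0.81, adjusted p 0.0161) that was lost without replicate 1 or 2 of regular medium at 24 h (adjusted p up to 0.0667). At 48 h per3 stood at 17.7, 17.02 and 18.7 and 36.7, 36.7 and 34.4 FPKM (log2 change 1.04 ± 0.34, adjusted p 0.0363), and lost its call without any one of the 6 libraries (adjusted p up to 0.104). The level of per1b was 8.398, 7.84 and 9.505 and 21.9, 21.7 and 20.6 FPKM at 48 h, with no overlap, and did not pass (log2 change 1.35 ± 0.60, adjusted p 0.129). At 48 h per2 ranged from 24.2 to 26.8 FPKM in regular medium and from 47.8 to 50.9 in 222 mM glucose. The range of per1a was 0.499 to 0.939 and 2.84 to 3.43 FPKM. Neither of them passed. Neither overlapped between the media, but the share of all genes without overlap was not counted.

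The E-box repressors rose with them, with calls for all 4 at 24 h and 2 at 48 h. The gene ciartb, a relative of mammalian Ciart that represses Clock and Bmal there, stood at 2.03, 2.94 and 2.72 FPKM in regular medium and 10.4, 9.76 and 11.7 in 222 mM glucose at 24 h (log2 change 2.04 ± 0.46, adjusted p 0.00119). At 48 h it stood at 3.55, 3.61 and 4.09 and 14.8, 16.2 and 15.5 FPKM (log2 change 2.08 ± 0.46, adjusted p 0.00238). The gene bhlhe41, whose product competes for E-boxes, stood at 6.4004, 6.47 and 7.18 and 19.2, 20.6 and 20.7 FPKM at 24 h (log2 change 1.58 ± 0.33, adjusted p 0.000583). Its levels at 48 h were 8.33, 7.78 and 9.597 and 26.5, 26.5 and 23.6 FPKM (log2 change 1.61 ± 0.33, adjusted p 0.00138). For both genes the media were apart at both times. Its relative bhlhe40 was higher at 24 h, from 58.9, 56.7 and 63.1 to 93.7, 119 and 116 FPKM (log2 change 0.87 ± 0.21, adjusted p 0.0021). By 48 h it stood at 109, 105 and 114 and 121, 117 and 111 (log2 change 0.12 ± 0.21, adjusted p 0.748). The gene ciarta ranged from 3.06 to 5.05 FPKM in regular medium and from 12.02 to 15.8 in 222 mM glucose at 24 h (log2 change 1.82 ± 0.58, adjusted p 0.0168). This was lost without replicate 1 or 2 of regular medium at 24 h (adjusted p up to 0.0627). At 48 h ciarta did not pass, at 5.15 to 6.28 FPKM in regular medium and 16.4 to 18.5 in 222 mM glucose, without overlap.

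Of the 5 Nr1d repressors 2 were higher. The gene nr1d2b (chromosome 19, 17400263 to 17407115) stood at 12.8, 15.3 and 16.6 FPKM in regular medium and 43.7, 48.8 and 48.2 in 222 mM glucose at 24 h (log2 change 1.65 ± 0.30, adjusted p 0.000108). At 48 h it stood at 29.1, 26.6 and 29.5 and 57.9, 53.6 and 52.5 FPKM (log2 change 0.98 ± 0.29, adjusted p 0.0216). Its call was lost without any one of the 3 libraries of regular medium at 48 h or replicate 1 or 3 of 222 mM glucose at 48 h (adjusted p up to 0.0753). The gene nr1d1 (chromosome 3, 23488652 to 23496223) stood at 4.11, 3.22 and 6.399 and 39.3, 27.1 and 32.2 FPKM at 24 h (log2 change 2.84 ± 0.87, adjusted p 0.0137). The levels at 48 h were 5.85, 5.33 and 8.402 and 39.8, 43.7 and 38.3 FPKM (log2 change 2.67 ± 0.86, adjusted p 0.0354). Every 222 mM library lay above every regular library at both times, but the spread of this gene elsewhere in the series was wide. The 24 h call was lost without replicate 2 of regular medium at 24 h (adjusted p 0.0591). The 48 h call was lost without any one of the 6 libraries (adjusted p up to 0.116). Its paralogs nr1d2a, nr1d4a and nr1d4b passed at neither time, and nr1d2a ranged from 16.6 to 17.9 FPKM in regular medium and from 32.5 to 38.8 in 222 mM glucose at 24 h (log2 change 1.02 ± 0.56, adjusted p 0.164).

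The Cryptochrome genes split. Lower in 222 mM glucose were cry4 and the cry3 pair; higher were cry2, cry1a and cry5, the last of these a photolyase in zebrafish. The gene cry4 (chromosome 22, 819656 to 834106) stood at 19.6, 18.6 and 19.1 FPKM in regular medium and 7.69, 11.3 and 10.9 in 222 mM glucose at 24 h (log2 change -0.95 ± 0.17, adjusted p 0.000109). At 48 h cry4 stood at 13.3, 12.4 and 13.2 and 4.03, 3.74 and 4.37 FPKM (log2 change -1.64 ± 0.18, adjusted p 4.13e-07). The gene cry3a (chromosome 8, 21225064 to 21252659) stood at 84.8, 100.2 and 95.9 and 50.9, 49.1 and 47.6 FPKM at 24 h (log2 change -0.93 ± 0.18, adjusted p 0.000236). Both were apart between the media, and cry3a was lower at 48 h too (log2 change -0.71 ± 0.18, adjusted p 0.00766). The gene cry3b stood at 43.5, 39.6 and 42.7 and 19.6, 19.4 and 19.3 FPKM at 48 h (log2 change -1.07 ± 0.23, adjusted p 0.00139), while at 24 h its libraries overlapped, at 47.4 to 54.9 and 46.04 to 50.6 FPKM. The genes cry3b (chromosome 22, 786556 to 809282) and cry4 lie on opposite strands, and their coordinates do not overlap. The gene cry5 stood at 6.77, 7.24 and 6.55 and 13.96, 15.4 and 15.9 FPKM at 24 h (log2 change 1.13 ± 0.25, adjusted p 0.0008) and changed by 1.05 ± 0.25 on the log2 scale at 48 h. The gene cry2 ranged from 9.03 to 13.8 and from 30.6 to 38.2 FPKM at 24 h (log2 change 1.68 ± 0.42, adjusted p 0.00324), and cry1a from 47.2 to 48.9 and from 76.9 to 84.7 (log2 change 0.74 ± 0.18, adjusted p 0.00152). The gene cry1b passed at neither time (log2 change 0.63 ± 0.26, adjusted p 0.0624 at 24 h). By these calls, 3 of the 7 Cryptochrome genes were higher and 2 lower at 24 h, and at 48 h 1 was higher and 3 were lower. At 48 h cry2 ranged from 11.8 to 16.8 FPKM in regular medium and from 30.9 to 32.6 in 222 mM glucose. The range of cry1a was 49.3 to 51.7 and 57.3 to 61.3 FPKM. Neither of them passed. Neither overlapped between the media, but the share of all genes without overlap was not counted.

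The casein kinases and timeless had small changes. Casein kinase genes code for enzymes that phosphorylate Period proteins. At 24 h csnk1db was higher and ranged from 31.4 to 31.7 FPKM in regular medium and from 44.1 to 47.7 in 222 mM glucose (log2 change 0.53 ± 0.12, adjusted p 0.000857). The gene csnk1e ranged from 6.09 to 7.15 FPKM in regular medium and from 9.78 to 10.4 in 222 mM glucose (log2 change 0.58 ± 0.16, adjusted p 0.00655), while csnk1da did not pass (log2 change 0.11 ± 0.10, adjusted p 0.427). The gene timeless, whose mammalian counterpart acts at the replication fork, ranged from 6.19 to 7.06 FPKM in regular medium and from 8.55 to 9.22 in 222 mM glucose (log2 change 0.403 ± 0.10, adjusted p 0.00238). At 48 h none of these 4 passed. Over the 23 pairwise comparisons made here and both F tests of the response to the cut, hlfa, nr1d2a, rorb and nr1d4a passed in 0 in edgeR with all 36 libraries.

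**Figure D4:**
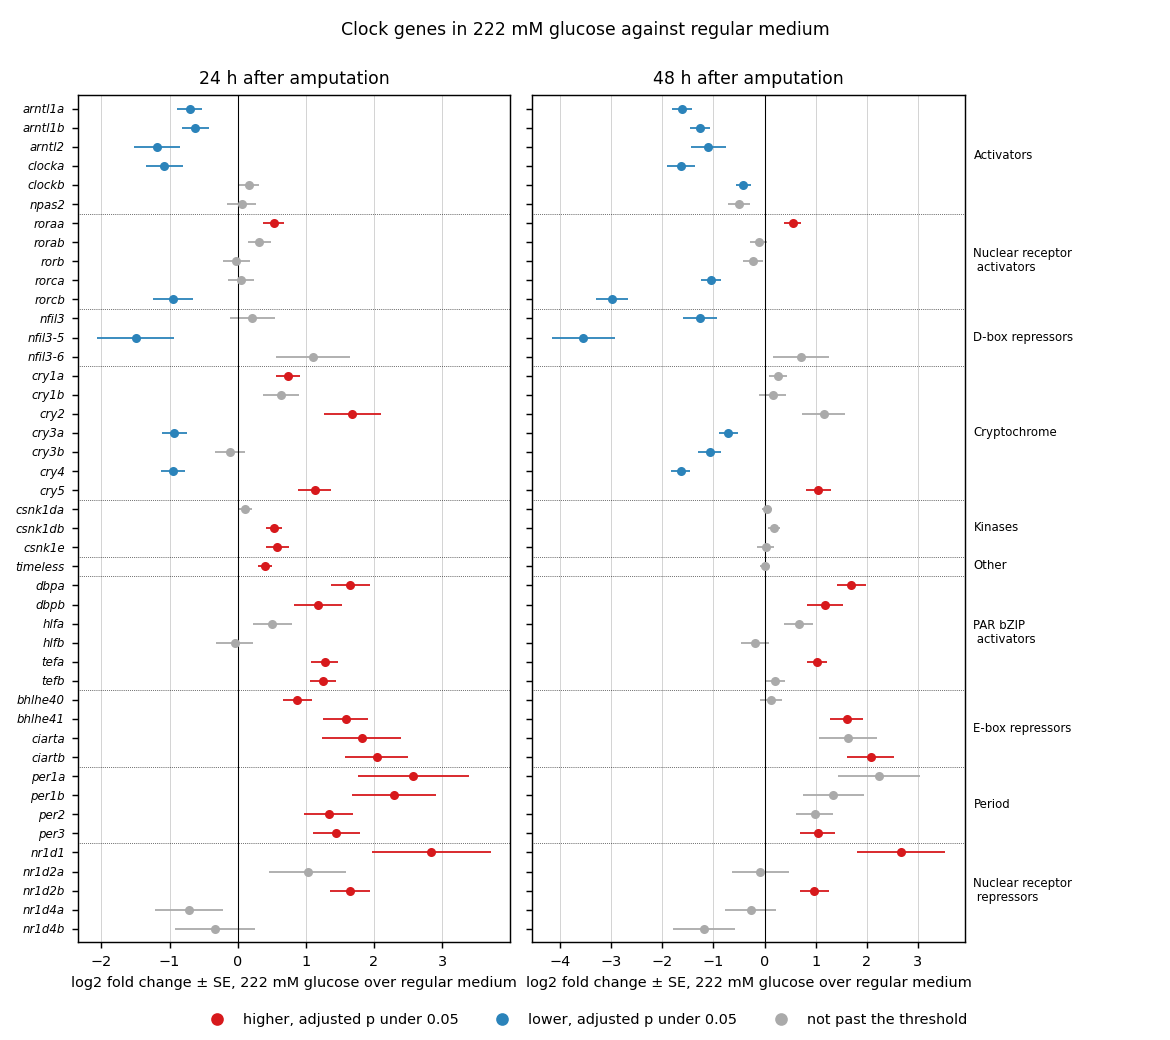
Log2 fold change with its SE (x axis) of each of the 44 clock genes (y axis, by role) in 222 mM glucose over regular medium at 24 h (left) and 48 h (right), from edgeR; red and blue mark genes past an adjusted p of 0.05. The arntl genes, clocka, rorcb, nfil3-5 and cry4 lie left of 0, and Period, ciart, bhlhe41, dbpa, tefa and nr1d1 lie right of it.

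Cell type markers were read in this contrast as well, and their part in the clock gene differences was not tested. Over all genes tested, 15.7% were higher and 18.4% lower in 222 mM glucose at 24 h, and 7.05% and 9.48% at 48 h. Of 12 skeletal muscle genes 8 were lower and 0 higher in 222 mM glucose at 24 h, with a median log2 change of -1.30 against 0.01 over all genes, and their summed level was 25289 to 28262 FPKM in regular medium and 12279.6 to 15336 in 222 mM glucose. At 48 h 5 were lower and 1 higher, with sums of 25839.8 to 30449 and 20264 to 22978 FPKM. Of 22 photoreceptor and pineal genes 5 rose and 5 fell at 24 h, and 2 rose and 3 fell at 48 h, with sums of 1846 to 2067 and 2229.6 to 2432 FPKM at 24 h and 1848 to 1924 and 1725 to 1890.1 at 48 h. Of 12 hepatocyte genes 1 rose and 2 fell at 24 h, and 3 rose and 0 fell at 48 h, with sums of 2175 to 2609 and 2437 to 2839 FPKM at 24 h and 996 to 1366 and 1845 to 2251 at 48 h. No marker on these lists was at 0 in all libraries of a group, as all 3 cell types are part of the whole larva.

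Other genes of the clock system were read from lists. For comparison, 15.7% of all genes were higher and 18.4% lower in 222 mM glucose at 24 h, and 7.05% and 9.48% at 48 h. Of 29 tested regulators of clock proteins or clock transcription, 14 were higher and 1 lower in 222 mM glucose at 24 h, among them usp2b, a ubiquitin protease (log2 change 1.404 ± 0.34), ep300a, a histone acetyltransferase (0.69 ± 0.12), and fbxl3a, which marks Cryptochromes for degradation (-0.78 ± 0.23). At 48 h 1 was higher and 4 lower, among them the deacetylase gene sirt1 (-0.83 ± 0.15). Of 25 tested light-induced or clock output genes, 8 were higher and 3 lower at 24 h, and 6 higher and 1 lower at 48 h. The light-induced gene cry-dash, a photolyase relative, rose by 1.13 ± 0.30 on the log2 scale at 24 h and by 0.895 ± 0.30 at 48 h, and the DNA repair gene xpc by 1.01 ± 0.16 and 1.05 ± 0.16. Of 12 glucocorticoid-responsive genes 0 were higher and 2 lower at 24 h, and 0 higher and 4 lower at 48 h. The median log2 change of this list was 0.279 at 24 h and -0.682 at 48 h, against 0.009 and 0.002 over all genes. At 48 h klf9 had a log2 change of -2.01 ± 0.63 and pck1, an enzyme of glucose synthesis, of -1.75 ± 0.29. The level of klf9 was 60.9 to 79.1 FPKM in regular medium and 10.8 to 22.99 in 222 mM glucose at 48 h, with no overlap.

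At 3 h the contrast between 222 mM glucose and regular medium rested on groups of unlike libraries. Of the clock genes 21 passed (47.7%, against 23.9% of all genes), all of them higher, against 11.0% of all genes higher and 12.9% lower. Without the 4 libraries apart 30 passed, 27 higher and 3 lower, against 35.1% of all genes. Without replicate 2 of 222 mM glucose at 3 h 7 passed, without replicates 2 or 3 of regular medium 12 and 9, and in a fit of these 6 libraries alone 0. Among the markers, 2 of 12 skeletal muscle genes were higher and 8 lower, 2 of 22 photoreceptor and pineal genes were higher and 1 lower, and 4 of 12 hepatocyte genes were higher and 0 lower, and their part was not tested. The gene tefa was among those whose libraries did not overlap, at 45.6, 31.6 and 32.2 FPKM in regular medium and 65.04, 80.9 and 51.2 in 222 mM glucose (log2 change 0.96 ± 0.19, adjusted p 0.000654). The gene tefb stood at 39.5, 39.1 and 36.1 and 71.01, 64.2 and 42.5 FPKM (log2 change 0.75 ± 0.19, adjusted p 0.00458). In contrast, dbpa overlapped between the media, at 7.89, 2.96 and 3.58 and 10.5, 14.96 and 5.55 FPKM (log2 change 1.19 ± 0.28, adjusted p 0.00313), and its log2 change was 1.87 without replicate 1 of regular medium. Uncut larvae differed in 2 clock genes (4.55%, against 12.6% of all genes), csnk1db (log2 change 0.36 ± 0.12, adjusted p 0.0432) and bhlhe41 (log2 change 1.09 ± 0.33, adjusted p 0.028). Of these, bhlhe41 stood at 5.46, 6.41 and 9.67 and 12.9, 12.2 and 16.1 FPKM. Both calls were lost without single libraries: csnk1db without replicate 1 or 2 of uncut larvae of regular medium or replicate 1 or 3 of uncut larvae of 222 mM glucose (adjusted p up to 0.185), and bhlhe41 without replicate 1 or 2 of uncut larvae of regular medium or replicate 1 or 3 of uncut larvae of 222 mM glucose (adjusted p up to 0.135). Without the 4 libraries apart 14 clock genes passed in uncut larvae, 14 higher and 0 lower, against 29.1% of all genes. Among the markers, in uncut larvae 2 skeletal muscle genes were higher and 3 lower, as were 0 and 8 photoreceptor and pineal genes and 3 and 0 hepatocyte genes, and their part was not tested.

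The lower glucose dose, 130 mM, was compared with regular medium in the same way, and the 2 doses share the regular-medium libraries. At 48 h 8 clock genes passed (18.2%, against 19.9% of all genes), a share near that of all genes. Of these 7 were lower and 1 higher, and the shares of all genes by direction are not given here. The gene rorcb stood at 5.04, 4.93 and 4.62 FPKM in 130 mM glucose, below the 18.9, 18.4 and 20.6 of regular medium (log2 change -1.83 ± 0.30, adjusted p 0.00013). The gene nfil3-5 stood at 11.97, 11.8 and 11.7 FPKM (log2 change -2.05 ± 0.58, adjusted p 0.0139), lost without replicate 2 of 130 mM glucose at 48 h (adjusted p 0.0503). The level of nfil3 was 11.6, 10.2 and 12.3 FPKM (log2 change -1.29 ± 0.33, adjusted p 0.0079). Both lay below every regular-medium library. Also lower were arntl1b (log2 change -0.82 ± 0.19, adjusted p 0.00362), cry3b (log2 change -1.01 ± 0.23, adjusted p 0.00222), clocka and npas2. The gene clocka lost its call without replicate 2 or 3 of regular medium at 48 h or any one of the 3 libraries of 130 mM glucose at 48 h (adjusted p up to 0.104), and npas2 without replicate 2 or 3 of regular medium at 48 h or any one of the 3 libraries of 130 mM glucose at 48 h (adjusted p up to 0.0705). The gene that was higher was dbpa, at 8.29, 8.35 and 8.11 FPKM (log2 change 1.13 ± 0.28, adjusted p 0.00567). Without replicate 2 of 130 mM glucose 5 passed, and without the 4 libraries apart 19, 6 higher and 13 lower, against 34.2% of all genes. Among the markers, 1 of 12 skeletal muscle genes were higher and 1 lower, 3 of 22 photoreceptor and pineal genes were higher and 0 lower, and 5 of 12 hepatocyte genes were higher and 0 lower. Of the 8 called genes, 5 had a group mean in 130 mM glucose between those of regular medium and 222 mM glucose at 48 h, namely rorcb, nfil3-5, dbpa, clocka and arntl1b. For the other 3 the mean in 130 mM glucose lay below that in 222 mM, at 11.4 and 12.5 FPKM for nfil3, 18.7 and 19.5 for cry3b, and 4.62 and 5.81 for npas2. How many of all called genes had means in that order was not counted, and the 2 doses were not tested against each other.

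At 24 h 0 clock genes passed between 130 mM glucose and regular medium in edgeR, against 7.03% of all genes. At an unadjusted p under 0.05 there were 3, DESeq2 called 1, and without the 4 libraries apart 2 passed, against 11.1% of all genes. At 3 h 9 passed (20.5%, against 9.50% of all genes), 8 higher and 1 lower, against 4.54% higher and 4.96% lower over all genes. The lower gene was cry3a, at 36.8, 80.5 and 85.7 FPKM in regular medium and 31.3, 33.4 and 32.7 in 130 mM glucose (log2 change -1.01 ± 0.18, adjusted p 0.00127), where replicate 1 of regular medium lay closest to the glucose group. The gene tefa stood at 62.5, 70.9 and 72.5 FPKM in 130 mM glucose (log2 change 0.91 ± 0.19, adjusted p 0.00368), above all 3 libraries of regular medium. The gene cry5 stood at 6.92, 3.21 and 3.32 and 8.32, 9.38 and 10.1 FPKM (log2 change 1.03 ± 0.25, adjusted p 0.00971). This call did not hold without replicate 2 or 3 of regular medium at 3 h (adjusted p up to 0.0963). Without replicate 1 of regular medium at 3 h 25 clock genes passed, without replicate 2 of it 2, and without the 4 libraries apart 29, 26 higher and 3 lower, against 31.8% of all genes. Among the markers, at 3 h 0 skeletal muscle genes were higher and 2 lower, as were 4 and 3 photoreceptor and pineal genes and 0 and 0 hepatocyte genes, and their part was not tested. Uncut larvae differed in arntl2 alone (2.27%, against 2.63% of all genes), at 5.69, 5.87 and 2.26 FPKM in regular medium and 1.86, 1.86 and 1.75 in 130 mM glucose (log2 change -1.34 ± 0.33, adjusted p 0.0274), lost without replicate 1 or 2 of uncut larvae of regular medium or any one of the 3 libraries of uncut larvae of 130 mM glucose (adjusted p up to 0.181). With the 4 libraries apart left out 19 passed, 11 higher and 8 lower, against 28.8% of all genes. In uncut larvae 0 skeletal muscle genes were higher and 3 lower, as were 2 and 0 photoreceptor and pineal genes and 0 and 2 hepatocyte genes.

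**Figure D5:**
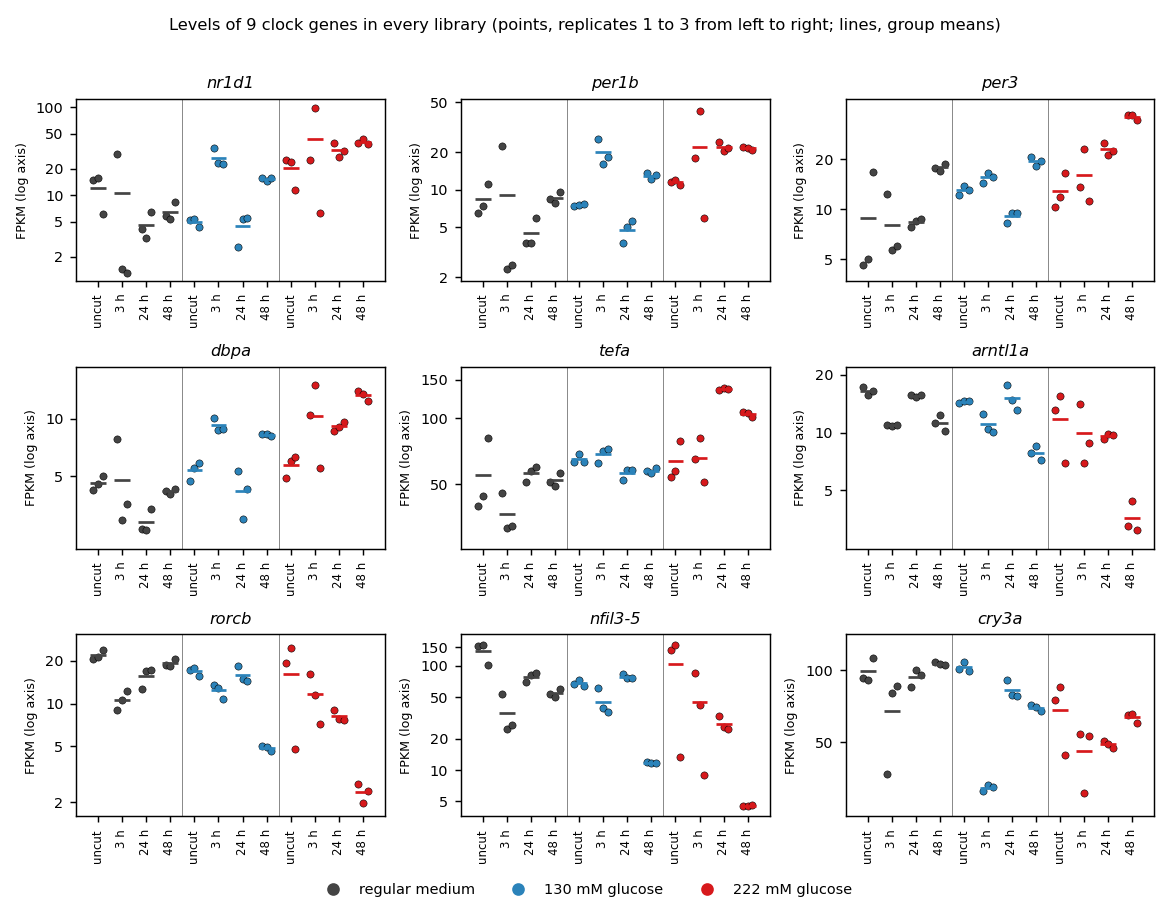
FPKM on a log axis (y axis) of 9 clock genes in each library (points) of the 12 groups (x axis, by medium and time after the cut), with group means as lines. In 222 mM glucose at 48 h arntl1a, rorcb and nfil3-5 have their lowest levels, and at 24 h tefa has its highest; the 3 h and uncut groups hold single libraries far from the others, as for nr1d1 in regular medium at 3 h.

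The cut larvae were then compared with the uncut larvae of the same medium. At 3 h in regular medium 15 clock genes passed (34.1%, against 15.1% of all genes), 14 lower and 1 higher, against 7.06% lower and 8.04% higher over all genes; without the 4 libraries apart 24 passed, 1 higher and 23 lower, against 22.5%, and in a fit of these 6 libraries alone 0. Of the 6 activators 5 were lower. The gene arntl1b stood at 12.3, 10.4 and 12.4 FPKM in uncut larvae and 4.59, 6.03 and 6.62 at 3 h (log2 change -0.998 ± 0.20, adjusted p 0.00104). The gene cry3b stood at 58.7, 55.1 and 66.4 and 19.5, 37.3 and 37.8 FPKM (log2 change -0.91 ± 0.22, adjusted p 0.00699). In both the libraries of uncut and cut larvae did not overlap. The gene nfil3-5 stood at 156, 159.6 and 102 and 53.03, 24.9 and 26.8 FPKM (log2 change -1.92 ± 0.57, adjusted p 0.0249). The call failed without replicate 2 of uncut larvae of regular medium or replicate 2 or 3 of regular medium at 3 h (adjusted p up to 0.0993). The gene that was higher was csnk1da, which ranged from 34.3 to 37.1 FPKM in uncut larvae and from 48.2 to 50.3 in cut larvae (log2 change 0.53 ± 0.10, adjusted p 0.000804). The count was 7 without replicate 2 of the 3 h group and 9 without replicate 3 of the uncut larvae. Among the markers, 3 of 12 skeletal muscle genes were higher and 1 lower, 1 of 22 photoreceptor and pineal genes were higher and 2 lower, and 0 of 12 hepatocyte genes were higher and 0 lower, and their part was not tested.

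In 130 mM glucose, where neither group held a library apart, 16 clock genes passed at 3 h against uncut larvae (36.4%, against 38.2% of all genes), 8 higher and 8 lower, against 20.9% and 17.3% over all genes, so that their share lay near that of all genes. With the spread estimated without the 4 libraries apart 25 passed, 15 higher and 10 lower, against 48.8% of all genes, and without replicate 1 of 130 mM glucose at 3 h 7. Among the markers, 3 of 12 skeletal muscle genes were higher and 0 lower, 3 of 22 photoreceptor and pineal genes were higher and 6 lower, and 8 of 12 hepatocyte genes were higher and 0 lower. The gene cry3a stood at 101, 108 and 98.9 FPKM in uncut larvae and 31.3, 33.4 and 32.7 at 3 h (log2 change -1.61 ± 0.19, adjusted p 1.08e-06). The gene clocka stood at 5.42, 5.61 and 4.99 and 2.76, 2.29 and 2.12 FPKM (log2 change -1.11 ± 0.27, adjusted p 0.00202). The gene arntl1b changed by -0.84 ± 0.19 on the log2 scale. Of the 6 activator genes 3 were lower and of the 7 Cryptochrome genes 2, with 0 higher in both. Of the 4 E-box repressor genes 3 were higher, of the 4 Period genes 1, and of the 5 Nr1d genes 1, with 0 lower in each. The gene bhlhe41 stood at 8.65, 9.78 and 8.53 and 18.6, 18.3 and 20.01 FPKM (log2 change 1.13 ± 0.33, adjusted p 0.00838). The level of ciartb was 3.15, 4.29 and 2.93 and 11.1, 12.3 and 9.62 (log2 change 1.72 ± 0.46, adjusted p 0.00426). The gene nr1d1 rose from 5.26, 5.38 and 4.398 to 34.6, 23.3 and 22.5 FPKM (log2 change 2.47 ± 0.86, adjusted p 0.0254), with no overlap. Its call was lost without any one of the 3 libraries of uncut larvae of 130 mM glucose or replicate 1 of 130 mM glucose at 3 h (adjusted p up to 0.0789). In 222 mM glucose 0 clock genes passed at 3 h in edgeR, against 0.895% of all genes, with 12 at an unadjusted p under 0.05, 2 in DESeq2 and 10 without replicate 3 of the uncut larvae. Both groups hold unlike libraries there, and without the 4 libraries apart 18 passed, 7 higher and 11 lower, against 17.9% of all genes.

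The later times in regular medium had few calls against uncut larvae. At 24 h 1 clock gene passed (2.27%, against 9.78% of all genes), the D-box activator gene hlfb, at 17.2, 15.4 and 6.61 FPKM in uncut larvae and 5.57, 6.38 and 5.66 at 24 h (log2 change -1.11 ± 0.27, adjusted p 0.00949). The call was lost without replicate 1 or 2 of uncut larvae of regular medium (adjusted p up to 0.0637). At 48 h 5 passed (11.4%, against 14.5% of all genes), namely arntl2, hlfb, cry4 and arntl1a, which were lower, and per3, which was higher. There hlfb stood at 4.45, 4.48 and 5.23 FPKM (log2 change -1.49 ± 0.27, adjusted p 0.000565). The level of arntl2 was 1.52, 1.62 and 1.59 (log2 change -1.56 ± 0.34, adjusted p 0.00273). The call of cry4 (log2 change -0.64 ± 0.17, adjusted p 0.0135) was lost without replicate 2 of regular medium at 48 h (adjusted p 0.0504). That of arntl1a was lost without replicate 1 or 2 of uncut larvae of regular medium or any one of the 3 libraries of regular medium at 48 h (adjusted p up to 0.155). For per3 it was lost without replicate 1 or 2 of uncut larvae of regular medium or any one of the 3 libraries of regular medium at 48 h (adjusted p up to 0.234). Without replicate 3 of the uncut larvae 4 passed at 24 h and 10 at 48 h, and without the 4 libraries apart 8 (2 higher and 6 lower) and 15 (5 higher and 10 lower), against 27.0% and 37.7% of all genes. At 48 h, among the markers, 4 of 12 skeletal muscle genes were higher and 0 lower, 0 of 22 photoreceptor and pineal genes were higher and 11 lower, and 0 of 12 hepatocyte genes were higher and 1 lower.

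In 130 mM glucose 1 clock gene passed at 24 h (2.27%, against 2.67% of all genes), tefb, at 49.5, 48.1 and 54.8 FPKM in uncut larvae and 27.5, 24.1 and 33.5 at 24 h (log2 change -0.81 ± 0.19, adjusted p 0.0189). That call was lost without replicate 2 or 3 of uncut larvae of 130 mM glucose or replicate 2 of 130 mM glucose at 24 h (adjusted p up to 0.103). At 48 h 9 passed (20.5%, against 6.14% of all genes), all lower, and the shares of all genes by direction are not given here. The 9 included rorcb, at 17.2, 17.8 and 15.7 and 5.04, 4.93 and 4.62 FPKM (log2 change -1.66 ± 0.30, adjusted p 0.00179). The others that held without each single library were cry3b (log2 change -1.301 ± 0.23, adjusted p 0.00123) and arntl1b (log2 change -1.05 ± 0.20, adjusted p 0.00191). The other 6 were nfil3-5, hlfb, clocka, npas2, arntl1a and cry4, whose calls were each lost without at least 1 single library. The gene hlfb changed by -1.03 ± 0.27 on the log2 scale and lost its call without replicate 2 or 3 of uncut larvae of 130 mM glucose or any one of the 3 libraries of 130 mM glucose at 48 h (adjusted p up to 0.096). The gene nfil3-5 changed by -2.39 ± 0.58 and lost its call without replicate 2 of uncut larvae of 130 mM glucose or any one of the 3 libraries of 130 mM glucose at 48 h (adjusted p up to 0.0747). At 48 h, among the markers, 10 of 12 skeletal muscle genes were higher and 0 lower, 0 of 22 photoreceptor and pineal genes were higher and 5 lower, and 3 of 12 hepatocyte genes were higher and 0 lower. Without replicate 2 of the uncut larvae 3 clock genes passed at 48 h. With the 4 libraries apart left out, 8 passed at 24 h (0 higher and 8 lower) and 22 at 48 h (5 higher and 17 lower), against 18.6% and 20.6% of all genes. In a fit of only the 6 libraries compared, 36 passed at 48 h, 11 of them higher, so the single direction of the 9 calls did not extend to these fits. The share of all genes in the fit of 6 libraries is not given here.

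In 222 mM glucose 18 clock genes passed at 48 h against uncut larvae (40.9%, against 17.2% of all genes), 13 lower and 5 higher, against 8.74% and 8.41% over all genes, and 15 of these calls held without each single library. Among the markers, 4 of 12 skeletal muscle genes were higher and 0 lower, 3 of 22 photoreceptor and pineal genes were higher and 4 lower, and 0 of 12 hepatocyte genes were higher and 4 lower, and their part was not tested. The lower genes again were 5 of the 6 activators, rorcb and rorca, nfil3 and nfil3-5, cry3b and cry4, and hlfb and nr1d4b. The gene nfil3-5 stood at 141, 159 and 13.4 FPKM in uncut larvae and 4.51, 4.55 and 4.58 at 48 h (log2 change -4.604 ± 0.64, adjusted p 2.96e-05). The gene cry4 stood at 16.9, 14.9 and 10.1 and 4.03, 3.74 and 4.37 FPKM (log2 change -1.89 ± 0.18, adjusted p 7.31e-08). The level of arntl1a was 13.1, 15.4 and 6.93 and 3.25, 4.38 and 3.11 (log2 change -1.82 ± 0.19, adjusted p 2.12e-07). In all 3 replicate 3 of the uncut larvae lay nearest to the cut larvae, and no library overlapped. Higher were per3, at 10.3, 11.8 and 16.5 and 36.7, 36.7 and 34.4 FPKM (log2 change 1.36 ± 0.34, adjusted p 0.00735), dbpa (log2 change 1.105 ± 0.28, adjusted p 0.00733), tefa, roraa and ciartb. At 24 h 7 passed (15.9%, against 4.60% of all genes), 5 lower and 2 higher, and the shares of all genes by direction are not given here. At that time tefa rose, from 53.99, 57.6 and 78.9 to 135, 138 and 136 FPKM (log2 change 1.01 ± 0.19, adjusted p 0.00205). Of the 7 calls this 1 alone held without each single library. With the 4 libraries apart left out, 18 passed at 24 h (6 higher and 12 lower) and 26 at 48 h (8 higher and 18 lower), against 18.0% and 24.7% of all genes. Without replicate 1 or 2 of the uncut larvae 1 passed at 24 h, and without replicate 3 of them 12. In a fit of only the 6 libraries compared, 6 passed at 24 h, 6 of them higher, and in limma 3, 2 of them higher. Among the markers, at 24 h 0 skeletal muscle genes were higher and 2 lower, as were 5 and 1 photoreceptor and pineal genes and 0 and 1 hepatocyte genes, and their part was not tested.

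Among cut larvae, the step from 3 to 24 h had the most calls in 130 mM glucose. There 21 clock genes passed (47.7%, against 24.8% of all genes), 16 lower and 5 higher, against 13.6% and 11.2% over all genes, and 12 held without each single library. Among the markers, 0 of 12 skeletal muscle genes were higher and 0 lower, 7 of 22 photoreceptor and pineal genes were higher and 3 lower, and 0 of 12 hepatocyte genes were higher and 0 lower. The gene dbpa stood at 10.1, 8.74 and 8.86 FPKM at 3 h and 5.33, 2.995 and 4.32 at 24 h (log2 change -1.16 ± 0.28, adjusted p 0.00374). The gene nr1d2b stood at 41.7, 37.8 and 38.5 and 18.9, 18.3 and 18.9 FPKM (log2 change -1.096 ± 0.29, adjusted p 0.00761). The level of bhlhe41 was 18.6, 18.3 and 20.01 and 4.61, 6.2002 and 6.97 (log2 change -1.69 ± 0.33, adjusted p 0.000691). All 3 were lower at 24 h without overlap. In the other direction cry3a stood at 90.9, 79.04 and 77.9 FPKM at 24 h, above the 31.3 to 33.4 at 3 h (log2 change 1.32 ± 0.19, adjusted p 1.39e-05). The gene clocka, at 4.62, 4.89 and 5.11 FPKM at 24 h, was higher as well (log2 change 1.003 ± 0.27, adjusted p 0.00735). So was arntl1b, at 10.1, 9.38 and 9.18 (log2 change 0.73 ± 0.19, adjusted p 0.00683). In regular medium 9 passed (20.5%, against 18.5% of all genes, a share near that of all genes), 6 higher and 3 lower. The shares of all genes by direction are not given here. Of the 9, arntl1b alone held without each single library, at 4.59, 6.03 and 6.62 FPKM at 3 h and 8.24, 9.97 and 10.2 at 24 h (log2 change 0.75 ± 0.19, adjusted p 0.00712). Without replicate 3 of regular medium at 24 h 2 passed, and without replicate 2 of it 3. In 222 mM glucose tefa alone passed (2.27%, against 7.82% of all genes; log2 change 0.93 ± 0.19, adjusted p 0.00317), and without replicate 3 of 222 mM glucose at 3 h 5 did. Among the markers, in regular medium 0 skeletal muscle genes were higher and 1 lower, as were 0 and 1 photoreceptor and pineal genes and 0 and 0 hepatocyte genes, and in 222 mM glucose 0 skeletal muscle genes were higher and 5 lower, as were 1 and 4 photoreceptor and pineal genes and 0 and 1 hepatocyte genes. With the 4 libraries apart left out, the counts were 25 (5 higher and 20 lower), 18 (16 higher and 2 lower) and 6 (3 higher and 3 lower) in 130 mM glucose, regular medium and 222 mM glucose, against 36.9%, 25.8% and 20.6% of all genes.

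Between 24 and 48 h, which lie 1 day apart, 11 clock genes passed in 222 mM glucose (25.0%, against 24.8% of all genes), a share near that of all genes. All 11 were lower and 0 higher, against 11.9% and 12.9% over all genes. The gene nfil3 fell from 38.9, 40.5 and 42.3 FPKM at 24 h to 12.4, 14.7 and 10.5 at 48 h (log2 change -1.72 ± 0.34, adjusted p 0.000586). The gene arntl1a changed by -1.44 ± 0.19, rorcb by -1.79 ± 0.30, nfil3-5 by -2.64 ± 0.59, cry4 by -1.32 ± 0.18, cry3b by -1.34 ± 0.23 and rorca by -0.95 ± 0.19 on the log2 scale, each without overlap between the times. Among the markers, 11 of 12 skeletal muscle genes were higher and 0 lower, 0 of 22 photoreceptor and pineal genes were higher and 4 lower, and 0 of 12 hepatocyte genes were higher and 2 lower, and their part was not tested. In 130 mM glucose 9 passed (20.5%, against 2.87% of all genes), 3 higher and 6 lower, while by the criterion of the series text 14 did, 9 of them higher. The shares of all genes by direction are not given here. Whatever the p, 15 clock genes had a log2 change past 1 in size in 130 mM glucose, against 2.92% of all genes. Among the markers, in 130 mM glucose 3 skeletal muscle genes were higher and 0 lower, as were 0 and 5 photoreceptor and pineal genes and 0 and 0 hepatocyte genes, and their part was not tested. The gene rorcb stood at 18.3, 14.9 and 14.4 and 5.04, 4.93 and 4.62 FPKM (log2 change -1.59 ± 0.30, adjusted p 0.00278). The levels of hlfb were 10.6, 8.89 and 12.1 and 3.76, 3.71 and 4.2005 (log2 change -1.33 ± 0.27, adjusted p 0.00502), both lower at 48 h. The gene nr1d2b rose, from 18.9, 18.3 and 18.9 to 42.995, 40.9 and 42.2 FPKM (log2 change 1.28 ± 0.29, adjusted p 0.0137). This was lost without replicate 2 of 130 mM glucose at 24 h or replicate 3 of 130 mM glucose at 48 h (adjusted p up to 0.0509). In regular medium 2 passed (4.55%, against 9.53% of all genes), cry4 (log2 change -0.62 ± 0.17, adjusted p 0.022) and bhlhe40 (log2 change 0.81 ± 0.21, adjusted p 0.0152). Of these, cry4 lost its call without replicate 1 of regular medium at 24 h or any one of the 3 libraries of regular medium at 48 h (adjusted p up to 0.112). The gene bhlhe40 lost it without replicate 1 or 2 of regular medium at 24 h or replicate 3 of regular medium at 48 h (adjusted p up to 0.0588). Without replicate 3 of 130 mM glucose at 48 h 4 passed in 130 mM glucose. Without the 4 libraries apart the counts were 23 (3 higher and 20 lower), 17 (6 higher and 11 lower) and 10 (5 higher and 5 lower) in 222 mM glucose, 130 mM glucose and regular medium, against 37.8%, 8.73% and 24.0% of all genes.

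Whether the response to the cut differed between media was tested for each gene with an F test over the 3 times against uncut larvae. Between 222 mM glucose and regular medium 11 clock genes passed (25.0%, against 15.3% of all genes). The largest F was that of rorcb (F 21.9, adjusted p 0.000112), whose level fell between uncut larvae and 48 h by 2.86 on the log2 scale in 222 mM glucose and changed by -0.20 ± 0.29 in regular medium, which did not pass. Next were cry4 (F 13.7, adjusted p 0.000835) and arntl1a (F 13.5, adjusted p 0.000863). Without each single library the calls of rorcb, cry4, arntl1a, arntl1b, rorca, nfil3 and nfil3-5 held. Between 130 mM glucose and regular medium 6 passed (13.6%, against 17.9% of all genes), and those of rorcb (F 9.98, adjusted p 0.00456) and npas2 (F 7.96, adjusted p 0.00931) held without each single library. The gene npas2 stood at 13.03, 11.95 and 10.4 FPKM in uncut larvae and 7.05, 5.76 and 6.61 at 3 h in regular medium, and at 8.42, 10.04 and 10.3 and 8.6004, 12.2 and 11.4 in 130 mM glucose. Leaving out the 4 libraries apart, 34 and 39 clock genes passed, against 43.4% and 55.6% of all genes, and the omission of replicate 1 of regular medium at 3 h gave 26 and 25. Without replicate 3 of 222 mM glucose at 3 h 18 passed for 222 mM glucose, and without replicate 3 of the uncut larvae of regular medium 14 passed for 130 mM glucose.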

How the data were processed

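The deposited table held a count and an FPKM value per Ensembl gene and library. The counts, whole numbers per gene, were deposited by the authors unnormalized. The FPKM values, also deposited by the authors, are scaled to transcript length and mapped fragments. Per the submitters' processing notes, HISAT, StringTie and edgeR were used with GRCz11; no source used here gives the counting tool or strand setting. Total counts ran from 47904694 to 67514889 per library, and replicates differed by more than sampling noise in every pair.

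Counts were tested with edgeR 4.0.16 (R 4.3.3; quasi-likelihood, TMM scaling, robust, 12 group means, all 36 libraries in 1 fit) over the 20120 genes at 1 FPKM or more in at least 3 libraries, with Benjamini-Hochberg adjustment over all of them in each comparison and a threshold of 0.05 with no minimum fold. The fit had a common biological coefficient of variation of 0.203 and, as median, 6.93 prior df. Standard errors were computed as log2 change over the square root of F. The scripts were tested on simulated counts. Log2 CPM used a prior count of 2.

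Members, roles, lists and tests were chosen with earlier results of these data known. Values in every library were given for at most 24 genes, those called in most comparisons or with the smallest F test p-values; nr1d1 and per1b lie outside that rule and were chosen after their values were seen, as were other members given by their range, and calls that held without each single library were preferred as examples. Genes outside the members came from fixed lists or from likeness to nr1d1 and arntl1b. The alternatives were median-ratio scaling, no expression filter, DESeq2 1.42.0, the criterion of the series text, limma 3.58.1 on log2 FPKM with 0.1 or 1 added first, only the libraries compared, a replicate block, and leaving out single libraries or the 4 apart.

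What a replicate number marks is not stated. Deviations from the group means of same-numbered libraries correlated above 0.1 in all pairs for uncut larvae and 3 h in 222 mM glucose (r = 0.174, 0.152 and 0.389 across genes) and in no other comparison, and only there were they treated as pairs.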

Additional observations from a re-analysis of the deposited data

Results flagged for a closer look

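The response to the cut differed between media, by the F test of the interaction terms in edgeR, for the following clock genes, with the adjusted p in brackets. Between 222 mM glucose and regular medium these were rorcb (0.0001117), cry4 (0.0008349), arntl1a (0.0008627), arntl1b (0.006066), nfil3-5 (0.007506), rorca (0.007588), nfil3 (0.01412), cry3b (0.02266), tefb (0.03327), clocka (0.0363) and roraa (0.04062). Between 130 mM glucose and regular medium these were rorcb (0.004563), npas2 (0.009313), nfil3 (0.0201), cry3a (0.02015), hlfb (0.04486) and nr1d4b (0.04995). The genes rorcb and nfil3 are in both groups, which share the regular-medium libraries. The 11 and 6 calls were 25.0% and 13.6% of the clock genes, against 15.3% and 17.9% of all genes. Of these calls, 7 and 2 held without each single library and in all other fits but that of only the libraries compared. The single uncut group of each medium enters all 3 terms of its test.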

How the results depend on the processing

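No called change of a named clock gene changed sign under the alternatives tried. The balance of higher and lower calls turned in 4 comparisons that had more calls in a direction, and equal counts also tipped. The cause of these differences was not tested. Higher calls came to outnumber lower ones for 222 mM over regular at 48 h (10 of 22 reported; 14 of 26 in DESeq2, 14 of 25 and 14 of 24 in limma with 0.1 and 1 added, 20 of 34 with only the libraries compared, 12 of 22 by the series criterion, 16 of 29 without the 4 libraries apart). They did so for 48 h over 24 h in 130 mM (3 of 9 reported; 9 of 14 by the series criterion) and for 24 h over uncut in 222 mM (2 of 7; 2 of 3 in both limma fits, 6 of 6 with only the libraries compared). For 130 mM over regular in uncut larvae they did so without the 4 libraries apart (0 of 1; 11 of 19). Equal counts for 3 h over uncut in 130 mM (8 of 16 higher) went either way. With only the libraries compared 19 of 32 were higher, by the series criterion 6 of 8, and without an expression filter 5 of 13. For 48 h over 24 h in regular (1 of 2 higher) DESeq2 gave 3 of 5, only the libraries compared 14 of 23, and a replicate block 1 of 3. Counts of clock genes past the threshold (of 44) that differ by over 1.5 times from the reported ones are given here, with the media named regular, 130 mM and 222 mM. The share of all genes is not given beside them, so they show only how far each count moved. Scaling by DESeq2's median ratios moved no count that far. Without an expression filter there were 1 for 222 mM over regular in uncut larvae and 4 for 130 mM over regular at 3 h. Without the 4 libraries apart there were 2 for 130 mM over regular at 24 h and 6 for 24 h over 3 h in 222 mM. It also gave 8 for 24 h over uncut in regular and 24 h over uncut in 130 mM. Further counts were 10 for 48 h over 24 h in regular and 14 for 222 mM over regular in uncut larvae. The count was 15 for 48 h over uncut in regular and 17 for 48 h over 24 h in 130 mM. Other counts were 18 for 3 h over uncut in 222 mM, 24 h over uncut in 222 mM and 24 h over 3 h in regular. There were 19 for 130 mM over regular in uncut larvae and 130 mM over regular at 48 h. The same setting gave 22 for 48 h over uncut in 130 mM and 23 for 48 h over 24 h in 222 mM. It also gave 24 for 3 h over uncut in regular and 25 for 3 h over uncut in 130 mM. Further counts were 29 for 130 mM over regular at 3 h and 34 for the F test of 222 mM. The count was 39 for the F test of 130 mM. In fits of only the libraries compared there were 0 for 3 h over uncut in regular, 24 h over uncut in regular, 130 mM over regular in uncut larvae, 130 mM over regular at 3 h, 222 mM over regular in uncut larvae and 222 mM over regular at 3 h. Other counts were 3 for 130 mM over regular at 24 h and 6 for the F test of 222 mM. There were 8 for 24 h over uncut in 130 mM and 11 for the F test of 130 mM. The same setting gave 21 for 48 h over 24 h in 130 mM and 23 for 48 h over 24 h in regular. It also gave 28 for 48 h over uncut in 222 mM and 30 for 48 h over 24 h in 222 mM. Further counts were 32 for 3 h over uncut in 130 mM and 33 for 130 mM over regular at 48 h. The count was 34 for 222 mM over regular at 48 h and 36 for 48 h over uncut in 130 mM. limma on log2(FPKM + 0.1) called 0 for 130 mM over regular in uncut larvae. Other counts were 2 for 24 h over uncut in regular, 24 h over uncut in 130 mM and 24 h over 3 h in 222 mM. There were 3 for 24 h over uncut in 222 mM and 17 for 130 mM over regular at 3 h. limma on log2(FPKM + 1) called 2 for 24 h over uncut in regular, 24 h over uncut in 130 mM, 24 h over 3 h in 222 mM and 130 mM over regular in uncut larvae. The same setting gave 3 for 24 h over uncut in 222 mM and 4 for 48 h over 24 h in regular. It also gave 15 for 130 mM over regular at 3 h. DESeq2 called 1 for 130 mM over regular at 24 h. Further counts were 2 for 3 h over uncut in 222 mM, 24 h over 3 h in 222 mM and 130 mM over regular in uncut larvae. The count was 4 for 24 h over uncut in regular, 24 h over uncut in 130 mM and 222 mM over regular in uncut larvae. Other counts were 5 for 48 h over 24 h in regular and 10 for the F test of 130 mM. There were 14 for 48 h over 24 h in 130 mM. By the criterion of the series text, a log2 change past 1 at an unadjusted p under 0.05, there were 0 for 24 h over uncut in 130 mM and 24 h over 3 h in 222 mM. The same setting gave 1 for 48 h over 24 h in regular and 222 mM over regular in uncut larvae. It also gave 2 for 24 h over uncut in regular and 3 h over uncut in 222 mM. Further counts were 3 for 130 mM over regular in uncut larvae and 4 for 24 h over 3 h in regular. The count was 5 for 3 h over uncut in regular and 130 mM over regular at 3 h. Other counts were 7 for 48 h over 24 h in 222 mM and 8 for 3 h over uncut in 130 mM. There were 12 for 24 h over 3 h in 130 mM and 13 for 222 mM over regular at 3 h. The same setting gave 14 for 48 h over 24 h in 130 mM and 18 for 222 mM over regular at 24 h.

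Leaving out single libraries of a comparison in turn moved these counts. For 130 mM over regular at 3 h the range was 2 (without replicate 2 of regular at 3 h) to 25 (without replicate 1 of regular at 3 h). For 130 mM over regular at 48 h the range was 5 (without replicate 2 of 130 mM at 48 h) to 8 (without replicate 1 of regular at 48 h). For 130 mM over regular in uncut larvae the range was 0 (without replicate 1 of uncut larvae of regular) to 10 (without replicate 3 of uncut larvae of regular). For 222 mM over regular at 3 h the range was 7 (without replicate 2 of 222 mM at 3 h) to 27 (without replicate 1 of regular at 3 h). For 222 mM over regular in uncut larvae the range was 0 (without replicate 1 of uncut larvae of regular) to 8 (without replicate 3 of uncut larvae of regular). For 24 h over 3 h in 222 mM the range was 1 (without replicate 1 of 222 mM at 3 h) to 5 (without replicate 3 of 222 mM at 3 h). For 24 h over 3 h in regular the range was 2 (without replicate 3 of regular at 24 h) to 9 (without replicate 3 of regular at 3 h). For 24 h over uncut in 130 mM the range was 0 (without replicate 2 of uncut larvae of 130 mM) to 3 (without replicate 1 of 130 mM at 24 h). For 24 h over uncut in 222 mM the range was 1 (without replicate 1 of uncut larvae of 222 mM) to 12 (without replicate 3 of uncut larvae of 222 mM). For 24 h over uncut in regular the range was 1 (without replicate 1 of uncut larvae of regular) to 4 (without replicate 3 of uncut larvae of regular). For 3 h over uncut in 130 mM the range was 7 (without replicate 1 of 130 mM at 3 h) to 11 (without replicate 2 of 130 mM at 3 h). For 3 h over uncut in 222 mM the range was 0 (without replicate 1 of uncut larvae of 222 mM) to 10 (without replicate 3 of uncut larvae of 222 mM). For 3 h over uncut in regular the range was 7 (without replicate 2 of regular at 3 h) to 20 (without replicate 1 of regular at 3 h). For 48 h over 24 h in 130 mM the range was 4 (without replicate 3 of 130 mM at 48 h) to 8 (without replicate 1 of 130 mM at 24 h). For 48 h over 24 h in regular the range was 0 (without replicate 1 of regular at 24 h) to 2 (without replicate 3 of regular at 24 h). For 48 h over uncut in 130 mM the range was 3 (without replicate 2 of uncut larvae of 130 mM) to 7 (without replicate 1 of uncut larvae of 130 mM). For 48 h over uncut in regular the range was 2 (without replicate 2 of regular at 48 h) to 10 (without replicate 3 of uncut larvae of regular). For the F test of 130 mM the range was 2 (without replicate 2 of regular at 3 h) to 25 (without replicate 1 of regular at 3 h). For the F test of 222 mM the range was 7 (without replicate 3 of regular at 48 h) to 26 (without replicate 1 of regular at 3 h). Where several libraries gave the same count, the first is named.

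With a replicate block in the fit of all 36 libraries, the counts stayed within 1.5 times of the reported ones in every comparison. For 3 h over uncut larvae in 222 mM glucose, where the numbers were taken as pairs, both this fit and a blocked fit of those 6 libraries called 0 clock genes. Each library held at least 47904694 counts, and 40 of the 44 genes reached 1 FPKM in every library. Counting error weighs most on the genes with the lowest counts. Their lowest count in a library was 50 for per1a, 58 for nr1d4a, 75 for nr1d4b, 146 for ciartb and 227 for arntl2.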

Other observations

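Some genes outside the clock list had group means close to those of nr1d1 or arntl1b over the 12 groups, by the Pearson correlation of log2 CPM, given as a description. Closest to nr1d1 were cipca (0.955) and cipcb (0.937), relatives of a mammalian inhibitor of Clock, then drg2 (0.924) and dolpp1 (0.919). Closest to arntl1b were smtnb (0.961), fbxl3l (0.927) and fus (0.923). Of these fbxl3l was low, with a mean of 0.5465 FPKM. The 5 closest genes were taken for each, and those that carry only a clone name are left out here.

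Single genes of the fixed lists, chosen after their values were seen, varied between the libraries of groups that held unlike libraries. In regular medium at 3 h the summed level of the 29 clock regulators ranged from 456.5 to 472.1 FPKM. The sum of the 12 glucocorticoid-responsive genes ranged from 454.4 to 1249 FPKM there. That of 29 light-induced or clock output genes ranged from 194.7 to 338.2 FPKM. The glucocorticoid-responsive gene fkbp5 stood at 150.3, 19.3 and 20.5 FPKM in regular medium at 3 h and klf9 at 133, 19.9 and 21.2, with the high value in replicate 1 as for nr1d1. The clock output gene nocta, which codes for a phosphatase, stood at 10.01, 1.703 and 2.31 FPKM there. In uncut larvae of regular medium fkbp5 stood at 65.3, 73.5 and 13.4 FPKM and aanat2, the enzyme of pineal melatonin synthesis, at 15.4, 17.4 and 4.44, with replicate 3 the lowest in both. In 222 mM glucose at 3 h aanat2 stood at 5.62, 3.83 and 1.14 FPKM, again lowest in replicate 3. The gene aanat2 was at 1.16, 1.18 and 1.28 FPKM in 222 mM glucose at 48 h and at 0.993, 1.02 and 1.31 in 130 mM glucose at 48 h, the lowest group means of the series for this gene.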
